A study of Homo sapiens with 6 samples.

Results

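Strict accessible regions after 6 h of thyroid hormone were compared with those of vehicle-treated cells in Nthy-ORI, an immortalised line from normal human thyroid epithelium. A region, or peak, was strict where the authors' deposited irreproducible discovery rate (IDR, low where a peak ranks alike in both replicates) was at most 0.01, on chromosomes 1 to 22 and X. By this rule 3881 of the 12385 peaks of the T3 6 h list and 2894 of the 7103 peaks of the vehicle list were kept, 6775 of the 80149 peaks of the whole series. Accessibility was read by ATAC-seq (tagging of open DNA by the transposase Tn5) on nuclei of 50000 cells per sample. All cells had first spent 24 h without hormone, in medium with charcoal-stripped serum and no phenol red. The vehicle group received NaOH and is labelled 6 h, the T3 group received 10 nM T3 (triiodothyronine) for 6 h, and each had 2 replicates. A further group of 2 samples, 10 nM T3 for 24 h, was used only to see which regions were found again. No 24 h vehicle group was analysed here, and hormone and time cannot be told apart in that list. Nothing in the labels tells whether replicates came from separate cultures, and all cells are of 1 immortalised line.

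T3 acts through nuclear receptors, of which TRβ is the form studied in this series. The receptors sit on response elements beside RXR, hold corepressors there without hormone and exchange them for coactivators when T3 binds. SWI/SNF complexes use ATP to move nucleosomes and are among the partners through which DNA becomes accessible. In thyroid epithelium, PAX8, NKX2-1 and FOXE1 maintain the differentiated state in which hormone is made.

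The promoters of 6 genes with a gained peak are shown. Of gained peaks 17.3% lay at gene starts, against 1.88% of lost and 1.29% of shared T3 6 h peaks. MTR, ERP44 and SPHKAP belong to the strongest gained gene-end peaks whose peak covers the whole promoter window. HIF1A, DUSP6 and PCNA come from lists of hormone response, immediate early and cell cycle genes. Each window runs from 250 bases before to 50 after the start (RefSeq, GRCh38.p14), 5′ to 3′ on the gene's strand. Capitals mark every match, on either strand, to the ETS core CCGGAA, the CCAAT box (ATTGG) or the GC box GGGCGG. The same windows were searched for the thyroid hormone receptor half-site AGGTCA, the AP-1 site TGACTCA, the CRE TGACGTCA, the palindromic NRF1 site, the YY1 site AAGATGGCG and the E-box CACGTG, and these letters are in none of the 6.
MTR: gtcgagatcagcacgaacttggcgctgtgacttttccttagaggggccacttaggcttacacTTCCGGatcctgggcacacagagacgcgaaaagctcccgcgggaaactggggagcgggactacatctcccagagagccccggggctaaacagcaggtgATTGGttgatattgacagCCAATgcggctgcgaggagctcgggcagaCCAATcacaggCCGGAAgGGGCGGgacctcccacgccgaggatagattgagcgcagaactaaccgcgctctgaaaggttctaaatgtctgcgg
ERP44: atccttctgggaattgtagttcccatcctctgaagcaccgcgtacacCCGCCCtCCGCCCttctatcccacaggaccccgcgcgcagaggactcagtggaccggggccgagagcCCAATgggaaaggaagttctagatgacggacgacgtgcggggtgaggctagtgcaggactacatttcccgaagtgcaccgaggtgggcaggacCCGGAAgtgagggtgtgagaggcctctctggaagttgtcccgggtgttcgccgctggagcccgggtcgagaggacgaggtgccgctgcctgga
SPHKAP: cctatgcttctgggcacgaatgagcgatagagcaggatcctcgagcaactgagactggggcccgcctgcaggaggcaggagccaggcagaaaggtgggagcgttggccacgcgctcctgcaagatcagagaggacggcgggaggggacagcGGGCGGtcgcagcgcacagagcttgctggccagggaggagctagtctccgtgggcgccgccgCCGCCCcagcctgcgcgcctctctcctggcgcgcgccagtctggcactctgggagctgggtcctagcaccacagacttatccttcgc
HIF1A: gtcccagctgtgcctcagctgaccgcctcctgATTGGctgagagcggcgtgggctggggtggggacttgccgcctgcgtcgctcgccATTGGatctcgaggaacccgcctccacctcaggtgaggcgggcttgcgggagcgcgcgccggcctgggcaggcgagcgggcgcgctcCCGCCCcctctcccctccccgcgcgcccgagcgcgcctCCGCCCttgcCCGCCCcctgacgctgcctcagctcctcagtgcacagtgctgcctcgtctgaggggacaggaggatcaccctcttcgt
DUSP6: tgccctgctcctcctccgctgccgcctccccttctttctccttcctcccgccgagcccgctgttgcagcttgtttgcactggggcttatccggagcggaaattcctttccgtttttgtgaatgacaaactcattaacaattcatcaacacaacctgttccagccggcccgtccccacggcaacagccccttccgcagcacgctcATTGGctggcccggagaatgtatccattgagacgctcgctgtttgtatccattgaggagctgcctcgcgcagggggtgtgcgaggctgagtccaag
PCNA: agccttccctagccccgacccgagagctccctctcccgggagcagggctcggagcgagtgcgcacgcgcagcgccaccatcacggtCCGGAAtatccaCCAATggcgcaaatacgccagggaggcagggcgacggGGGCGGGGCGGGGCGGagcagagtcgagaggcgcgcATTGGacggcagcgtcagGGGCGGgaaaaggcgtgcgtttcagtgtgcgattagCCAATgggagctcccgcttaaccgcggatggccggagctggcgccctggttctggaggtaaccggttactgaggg
The MTR window lies at chr1:236795031-236795330 (plus strand), that of ERP44 at chr9:100098951-100099250 (minus) and that of SPHKAP at chr2:228181638-228181937 (minus). The HIF1A window lies at chr14:61695263-61695562 (plus), that of DUSP6 at chr12:89352452-89352751 (minus) and that of PCNA at chr20:5126573-5126872 (minus). Their GC content ran from 58.3% in DUSP6 to 73.0% in HIF1A, and their CpG count from 19 in DUSP6 to 33 in PCNA.

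Most strict peaks of the T3 6 h list had no counterpart in the strict vehicle list. A peak was shared where it overlapped a peak of the other list by at least 50% of the shorter one, gained where it was in the T3 6 h list alone and lost where it was in the vehicle list alone. Of the 3881 T3 6 h peaks, 2793 were gained (72.0%, exact Clopper-Pearson 95% interval 70.5 to 73.4) and 1088 shared. Of the 2894 vehicle peaks, 1810 were lost (62.5%, 60.8 to 64.3) and 1084 shared. Gained peaks covered 4.07 Mb and lost peaks 2.80 Mb. Intervals cover counting error only, there is 1 list per group, and no test between conditions was possible, so the classes describe lists and not a tested change. With an IDR of at most 0.001 the order turned, to 495 gained and 617 lost, and in lists of equal length 1918 were gained and 1920 lost. Depth is unknown, and absence from a list does not show closed chromatin. A weaker vehicle peak, with an IDR of at most 0.05, lay at 272 gained peaks (9.74%), and a weaker T3 6 h peak at 386 lost ones (21.3%).

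Gained, shared and lost peaks lay in different places. At gene ends, meaning no more than 1 kb from the first or last base of a coding gene, lay 564 of 2793 gained peaks (20.2%, 18.7 to 21.7), 64 of 1810 lost peaks (3.54%, 2.73 to 4.49) and 19 of 1088 shared T3 6 h peaks (1.75%, 1.05 to 2.71). Inside genes but away from their ends were 30.6% of gained, 22.1% of lost and 12.6% of shared peaks. The far class turned the other way: 55.0% of shared (52.0 to 57.9), 34.0% of lost (31.9 to 36.3) and 5.30% of gained peaks (4.50 to 6.20) were over 1 Mb from any coding gene end. In the strict 24 h list 23.6% of 42577 peaks lay at gene ends and 1.56% in the far class. Among the 3 classes, the gained peaks were nearest to it in both of these positions. Within the gained peaks the gene-end share hardly moved with signal, from 18% of the 699 peaks of lowest signal to 20.9% of the 698 of highest signal. Among lost peaks the far share went from 25.2% of the 453 peaks of lowest signal to 50.1% of the 453 of highest signal.

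**Figure D1:**
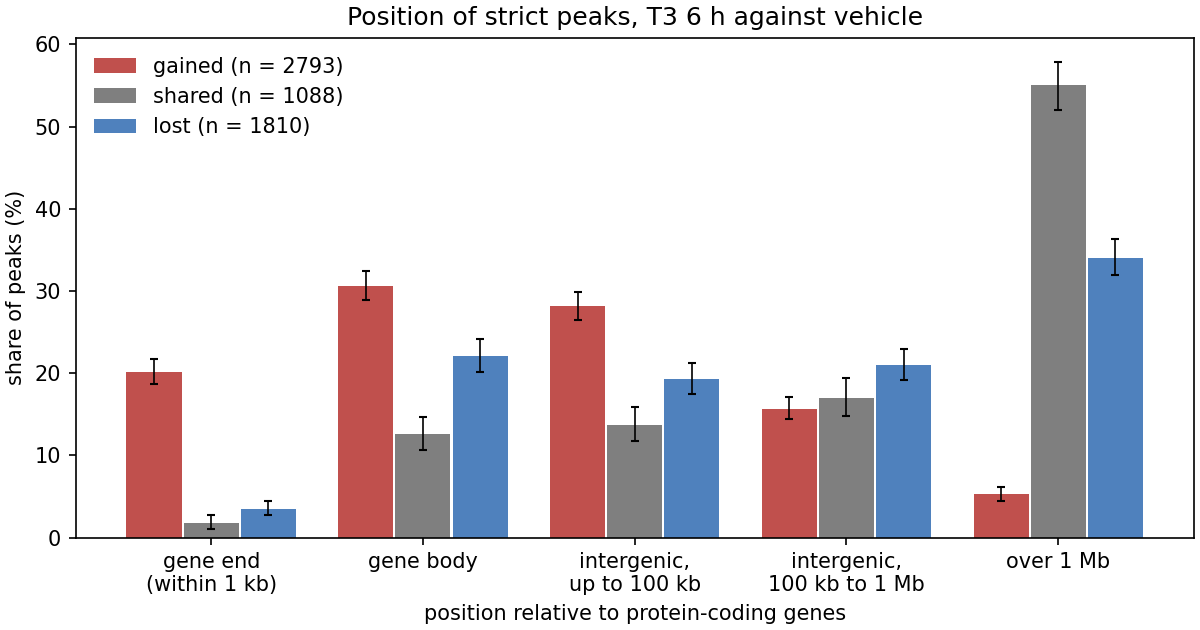
Share of gained, shared (counted in the T3 6 h list) and lost strict peaks by position relative to protein-coding genes, in percent of each class, with exact 95% intervals as error bars. Gained peaks lead at gene ends with 20.2%, and shared peaks lead over 1 Mb away with 55.0%.

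Most gained gene-end peaks lay at gene starts. With the 15812 coding genes that have a start entry, 482 gained peaks lay within 1 kb of a start and 19 within 1 kb of the other end of such a gene and at no start. Among lost peaks the numbers were 34 and 16, and among shared ones 14 and 2. These classes place a peak at the mean of its 2 replicate summits, and that position leans to 1 side. Read as distances from the replicate's peak start, the deposited replicate summits lay left of the peak's middle in 69.3% (first column) and 85.6% (second column) of strict T3 6 h peaks and in 72.4% and 73.1% of vehicle peaks, against 53.8% and 50.7% for the merged summit. Relative to the midpoint of gained peaks, the averaged summit had a median of -298 bp (negative is to the left) and the merged summit one of -29 bp. Distances between replicate summits are therefore not given for single genes. With the merged summit, 19.9% of gained and 3.09% of lost peaks lay at gene ends and 690 genes were gained and 60 lost, so the class sizes changed little.

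Distances to starts were taken from the merged summit. Of 480 gained peaks within 1 kb of a start, 270 lay upstream of it and 209 downstream, with a median of -44 bp (negative is upstream, quartiles -171 and 154 bp), and 323 lay within 250 bp. The strict 24 h peaks at starts had a median of -52 bp (quartiles -131 and 36 bp), so the gained peaks were spread more widely downstream. Pairs of starts were counted from the averaged replicate summit, not from the merged one. By that position, 104 of the 482 gained peaks at starts (21.6%, 18 to 25.5) had 2 or more starts within 1 kb. Among strict 24 h peaks at starts the share was 11.6% (10.9 to 12.3). Of all starts, 13.9% have another within 1 kb, but a peak count and a gene count are not the same unit.

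**Figure D2:**
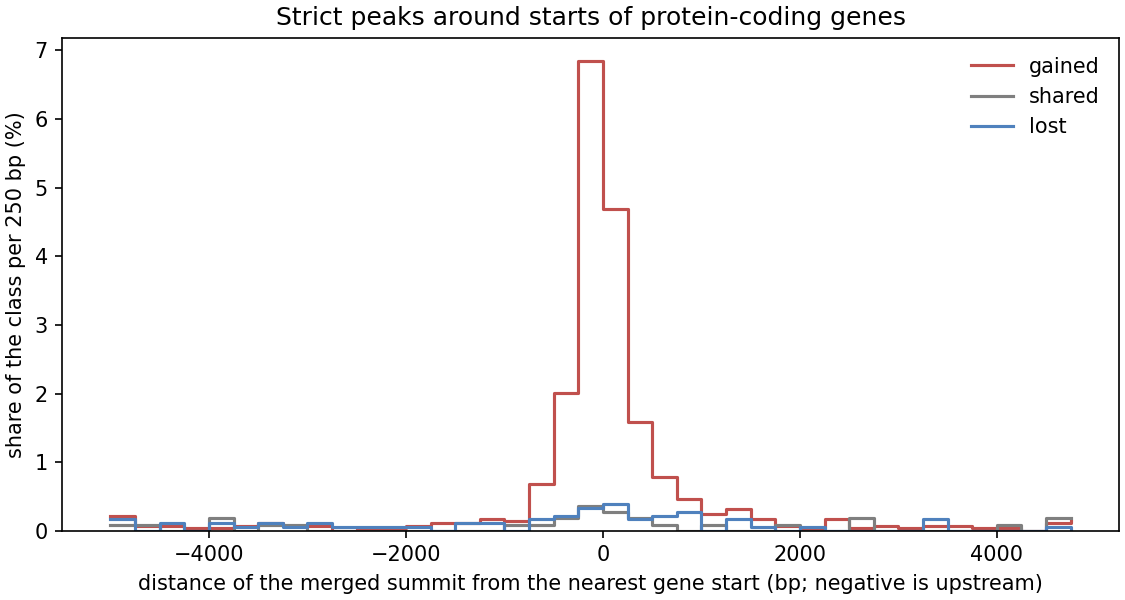
Distance of the merged summit of gained, shared and lost strict peaks from the nearest start of a protein-coding gene, in bins of 250 bp, as the share of each class in percent. Gained peaks reach 6.84% of their class in the bin just upstream of the start and 4.69% just downstream, while lost peaks have 0.331% and 0.387% there and shared peaks 0.368% and 0.276%.

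By gene, 695 of 19974 coding genes (3.48%) had a strict gene-end peak at T3 6 h and none in vehicle. The converse held for 70 genes (0.35%) and both lists had one for 22 (0.11%). Counted at starts alone, 588 of 15812 genes were gained (3.72%), 37 lost (0.234%) and 17 in both lists (0.108%).

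The gained gene-end peak of highest signal was that of MTR, the methionine synthase that uses vitamin B12, at chr1:236795015-236796090. Signals are the authors' and are compared only within 1 list, here as the values in the first and second replicate column. MTR had 5.57 and 12.4. PCDHB5, a clustered protocadherin, followed with 8.04 and 9.52. The start shared by ERP44, a chaperone of the secretory pathway, and INVS, the ciliary protein inversin, had 10.5 and 6.97 and the only weaker vehicle peak among the 10 strongest. SPHKAP, which anchors protein kinase A, had 7.55 and 9.33. Both columns were high at SPHKAP and PCDHB5, whereas at MTR the second column was the higher one.

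The other 6 of the 10 strongest were also higher in the second column. ANKMY2 and BZW2, which share a start region, had 4.09 and 12.6. GABPB1, the partner of the ETS factor GABPA, had 3.69 and 12.9. SUCO, needed for bone formation, had 4.21 and 12.4. HSPA4, an HSP70-family chaperone, had 5.08 and 11.3. TAF11L3, of a repeated gene family, had 3.51 and 12.7, and METTL2B, a tRNA methyltransferase, had 5.43 and 10.6. Of these 10 peaks, 9 were in the strict 24 h list, and PCDHB5 was not.

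Paired starts recurred further down the ranking. LMBRD2 and SKP2, the latter the F-box protein that marks cell cycle inhibitors for degradation, shared a gained peak at chr5:36151078-36152842 (5.15 and 10.3). EAF2, a transcription elongation cofactor, and IQCB1, a ciliary protein, shared one at chr3:121834444-121835589 (5.69 and 9.36). GFM2 and NSA2, of mitochondrial translation and ribosome assembly, shared one at chr5:74766725-74767948 (5.87 and 9.16). AP4B1, of a vesicle coat adaptor, and DCLRE1B, a nuclease of telomere ends, shared one at chr1:113904370-113905714 (8.24 and 6.67). All 4 were in the strict 24 h list. These pairs were chosen after their values were seen, as examples of high signal.

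In the hormone axis, gained and lost genes are read beside the 3.48% and 0.35% of all coding genes. Of 30 thyroid hormone response genes, 2 were gained and 0 lost. Among them was HIF1A, the hypoxia factor, at chr14:61694862-61695811 (5.34 and 6.74), which also had a strict 24 h gene-end peak. Of 24 genes of the hormone machinery (receptors, coregulators, transporters and deiodinases), 0 were gained and 0 lost, and 13 had a strict 24 h peak. Those 13 are 54.2% of the list, near the 55.1% of all coding genes with a strict 24 h gene-end peak. THRA, THRB, DIO1 and HR had no strict gene-end peak in any list, and KLF9 had one at 24 h alone. Together 2 of the genes in these lists were gained, and no set test was made.

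Among 18 thyroid differentiation genes, PAX8 was the 1 gained, at chr2:113277744-113279065 (6.40 and 4.53), and 0 were lost. Of all coding genes, 3.48% were gained and 0.35% lost. In all, 2 gained peaks had PAX8 as their nearest gene end within 100 kb. NKX2-1, FOXE1 and TSHR, the thyrotropin receptor, had a strict gene-end peak at 24 h alone. TG, the protein precursor of the hormone, had none, though 1 gained peak lay nearest to it. Of the 15 markers of thyroid epithelium, 1 had a strict T3 6 h gene-end peak, 0 a vehicle peak and 8 a strict 24 h peak. Of 23 markers of other cell types, 0 had one at 6 h or in vehicle and 6 had one at 24 h. At 6 h and in vehicle these lists therefore check the cell type no further than PAX8. At 24 h, 55.1% of all coding genes had a strict gene-end peak, and the 8 of 15 thyroid markers lay near that share.

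Of 31 SWI/SNF genes 2 were gained (6.45%) and 0 lost, where 3.48% of all coding genes were gained and 0.35% lost. ACTL6A, an actin-related subunit, had 4.49 and 7.24, and BCL11A, a lineage-restricted subunit, had 7.38 and 5.78 and no strict 24 h peak. The ATPases SMARCA4 and SMARCA2 and the BAF subunit ARID1A had a strict peak at 24 h alone. Of 35 genes of other remodellers, 3 were gained (8.57%) and 0 lost. Both counts rest on few genes, and no set test was made. These were the ATPases CHD1 (5.06 and 6.49), CHD8 (5.97 and 6.29) and SMARCA5 of the ISWI family (5.80 and 4.72). All 3 had a strict 24 h peak, as did 28 of the 35 genes of that list (80.0%) and 55.1% of all coding genes.

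Of 30 chaperone and protein folding genes, 6 were gained (20%, where 3.48% of all coding genes were), 0 were lost and 1 was in both lists. HSPA4 is given above. DNAJB9, which helps in the endoplasmic reticulum, had 7.19 and 7.68 at a start shared with THAP5. HSPA9, the mitochondrial HSP70, had 6.12 and 5.93. HSPH1, a nucleotide exchange factor, had 6.67 and 5.51, STIP1, the HSP70 to HSP90 adaptor, had 6.46 and 4.68, and CCT8, of the chaperonin that folds actin and tubulin, had 3.74 and 8.36. DNAJC3 was in both lists. All 7 had a strict 24 h gene-end peak, as did 28 of the 30 genes of the list (93.3%) and 55.1% of all coding genes. The list was chosen with earlier results of these data known, and its count is a description.

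Growth and replication genes were represented by a few members each, read beside the 3.48% of all coding genes gained and the 0.35% lost. The share gained was 10.0% in the cell cycle list and 5.48% in the histone list, and no set test was made. Of 30 cell cycle genes, 3 were gained and 0 lost: PCNA, the clamp of DNA polymerases (5.29 and 6.11), CDK2, the S phase kinase (5.91 and 5.39), and CDC6, which loads the replicative helicase (4.74 and 6.03). Among 30 DNA repair genes, XRCC4, of the end-joining pathway, was gained (4.72 and 7.30). Of 73 replication-dependent histone genes, 4 were gained at 2 shared starts, H2AC11 with H2BC11 (7.01 and 6.66) and H2AC25 with H2BC26 (6.79 and 5.34). The genes named here all had a strict 24 h gene-end peak, as did 55.1% of all coding genes.

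Among 30 respiratory chain and mitochondrial genes, 3 were gained (10.0%) and 1 lost, where 3.48% of all coding genes were gained and 0.35% lost. GABPB1, MRPS7 of the mitochondrial ribosome (5.06 and 6.07) and TFB2M, a mitochondrial transcription factor (7.16 and 3.87), were gained, and IMMT, which organises cristae, was lost. Of 30 spliceosome genes 3 were gained (10.0%) and 0 lost, among the gained SRSF6 (4.86 and 8.16) and PRPF8 (4.14 and 7.32). Of 80 cytosolic ribosomal protein genes 4 were gained (5.0%), namely RPS14, RPS27A, RPL37 and RPL22. Of 77 mitochondrial ones 2 were gained (2.6%, MRPL37 and MRPS7) and of 39 proteasome genes 2 (5.13%, PSMD9 and PSMA5). In the ribosomal and proteasome lists 0 were lost, and their gained shares lay near that of all coding genes. In signalling, DUSP6, the phosphatase of ERK (5.15 and 5.81), was the 1 gained of 30 AP-1 and immediate early genes. MTR was the 1 of 19 folate and methionine genes.

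Several lists had no member in either class. Of 21 glycolysis, 26 housekeeping, 20 YAP and TEAD, 20 EMT and 39 HOX genes, and of 25 genes restricted to other organs, 0 were gained and 0 lost. Of all coding genes 3.48% were gained and 0.35% lost, so counts of 0 in lists this short do not set them apart. Of the housekeeping genes 24 (92.3%) had a strict 24 h gene-end peak, where 55.1% of all coding genes had one. Among repeated families, 18 of 509 ZNF genes (3.54%) were gained, 4 lost and 1 in both, led by ZNF131 (6.74 and 8.67), ZNF337 (7.06 and 7.21) and the ZNF398 and ZNF425 start (6.18 and 8.06). Of 94 keratin-associated protein genes 1 was gained, KRTAP24-1, and of 26 POTE and TAF11L genes 2, TAF11L3 and TAF11L7. The ZNF share lay beside the 3.48% of all coding genes. Members of these families have close copies, and which copy a read belongs to is uncertain.

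Promoter windows under gained peaks were compared in their letters with those of all coding genes. A gained peak covered the whole window of 480 genes. The CCAAT box ATTGG, bound by NF-Y, was in 47.9% of them (43.4 to 52.5), against 36.3% of all 15812 windows (35.6 to 37.1) and 39.0% (37.8 to 40.2) of the 6226 windows covered by a strict 24 h peak and by no strict T3 6 h peak. The ETS core CCGGAA was in 32.9% (28.7 to 37.3), against 22.8% of all and 34.9% of those 24 h windows. The GC box GGGCGG was in 65.8% (61.4 to 70.1), between the 58.5% of all and the 76.1% of those 24 h windows. The CCAAT box was thus more frequent than in either set, and the GC box less frequent than in the 24 h windows. Windows were counted per gene, and those of paired starts can lie under 1 peak and are not independent. The intervals do not allow for this. Of gained peaks at starts 21.6% had 2 or more starts within 1 kb, against 11.6% of strict 24 h peaks at starts. Whether pairing bears on the motif shares was not tested. Median GC content was 63.0% in the gained windows, 62.7% in all and 66.7% in those 24 h windows, and the median CpG count was 25, 22 and 28.

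The shares of the receptor half-site and the AP-1 site under gained peaks could not be set apart from those of all windows at this number of windows. The half-site AGGTCA was in 48 of 480 windows (10.0%, 7.47 to 13), in 11.7% of all and in 8.61% of those 24 h windows (7.92 to 9.33). Its direct repeat with 4 bases between (DR4) was in 0 of 480, which allows a share of up to 0.766%, and in 1 of all 15812. The AP-1 site TGACTCA was in 2.29% (1.15 to 4.06), in 3.67% of all and in 2.60% of those 24 h windows. The NRF1 site was in 3.33% of gained windows (1.92 to 5.36), 1.76% of all and 2.86% of those 24 h windows. The CRE TGACGTCA was in 3.96% (2.40 to 6.11), 2.59% and 3.97%. For the YY1 site AAGATGGCG the shares were 3.54% (2.08 to 5.61), 2.74% and 4.72%, and for the E-box CACGTG 8.75% (6.38 to 11.6), 8.87% and 10.7%. The 24 h share lay within the gained interval for each of these sites. The 27 windows under lost and 15 under shared peaks are too few for shares to be set apart. Both strands were searched, the direct repeat contains the half-site, and a match is a description, not a bound site.

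**Figure D3:**
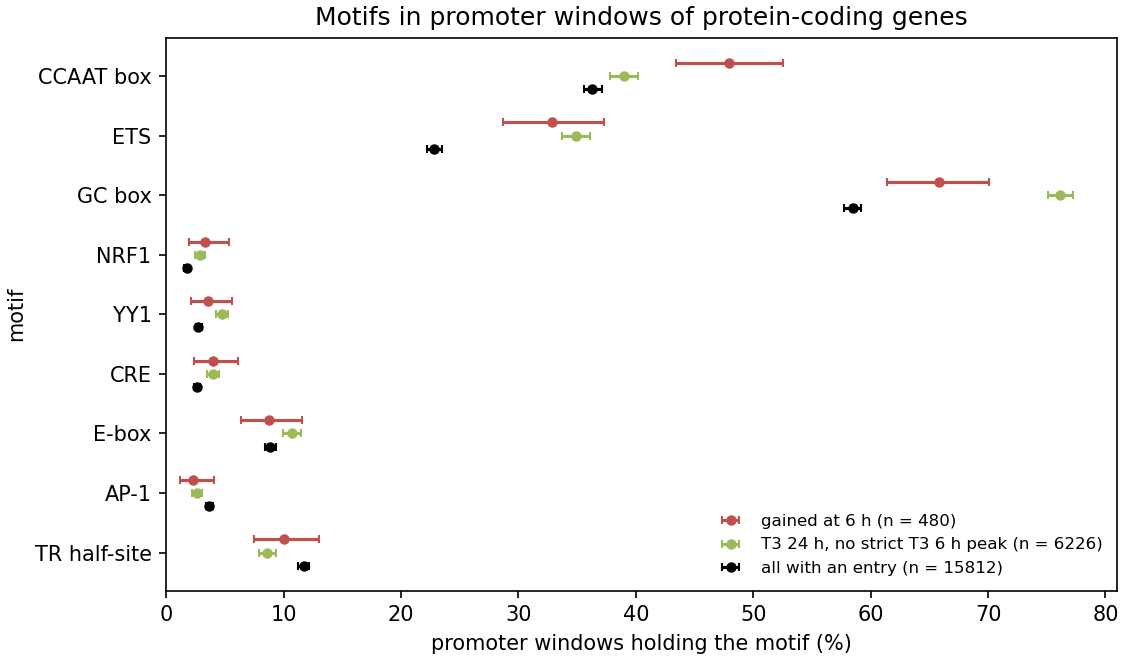
Share of promoter windows of protein-coding genes that hold each motif on either strand, for windows covered by a gained peak, by a strict T3 24 h peak without a strict T3 6 h peak, and for all windows with an entry; bars are exact 95% intervals. The CCAAT box stands at 47.9% under gained peaks and at 36.3% of all windows, and the receptor half-site at 10.0%, with 11.7% of all windows and 8.61% of the 24 h windows.

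The T3 24 h samples took no part in choosing the classes, and they held the gained gene-end peaks again in most cases. Of 564 gained gene-end peaks, 523 overlapped a strict 24 h peak (92.7%, 90.3 to 94.7), and of 2229 gained peaks elsewhere 757 did (34.0%, 32.0 to 36.0). At starts the share was 96.3% (437 of 454 gene-end peaks), and at the other ends 7 of 19. By gene, 653 of the 695 gained genes had a strict 24 h gene-end peak (94.0%), where 55.1% of all coding genes had one. At starts it was 563 of 588 (95.7%, 93.8 to 97.2), where 56.9% of genes with a start entry had one. Of the lost genes, 46 of 70 had one at an end (65.7%, 53.4 to 76.7) and 31 of 37 at a start (83.8%, 68 to 93.8), so the interval at starts reached that of gained genes.

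Lost peaks were found again less often than gained ones, with 272 of 1810 (15%, 13.4 to 16.8) against 1280 of 2793 (45.8%, 44.0 to 47.7). Lost gene-end peaks were in the 24 h list in 31 of 64 cases (48.4%, 35.8 to 61.3). Shared peaks were found again in 71.6% of cases (68.8 to 74.3). At gene ends 19 of 19 shared peaks were found again (82.4 to 100%), and in intergenic DNA up to 100 kb from a gene end 91.3%, against 39.5% of gained peaks. The shares depend on the length of the 24 h list. With that list limited to 3881 peaks, the length of the strict T3 6 h list, 12.6% of gained, 12.8% of shared and 0.829% of lost peaks were found again. Over all positions together, the intervals of gained and shared peaks then overlapped (11.4 to 13.9 and 10.8 to 14.9). At gene ends the limited list held 35.1% of gained, 9 of 19 shared and 7 of 64 lost peaks (10.9%, 4.51 to 21.2). Elsewhere it held 6.86% of gained (5.85 to 7.99), 12.2% of shared (10.3 to 14.3) and 0.458% of lost peaks. Away from gene ends shared peaks were thus found again more often than gained ones.

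**Figure D4:**
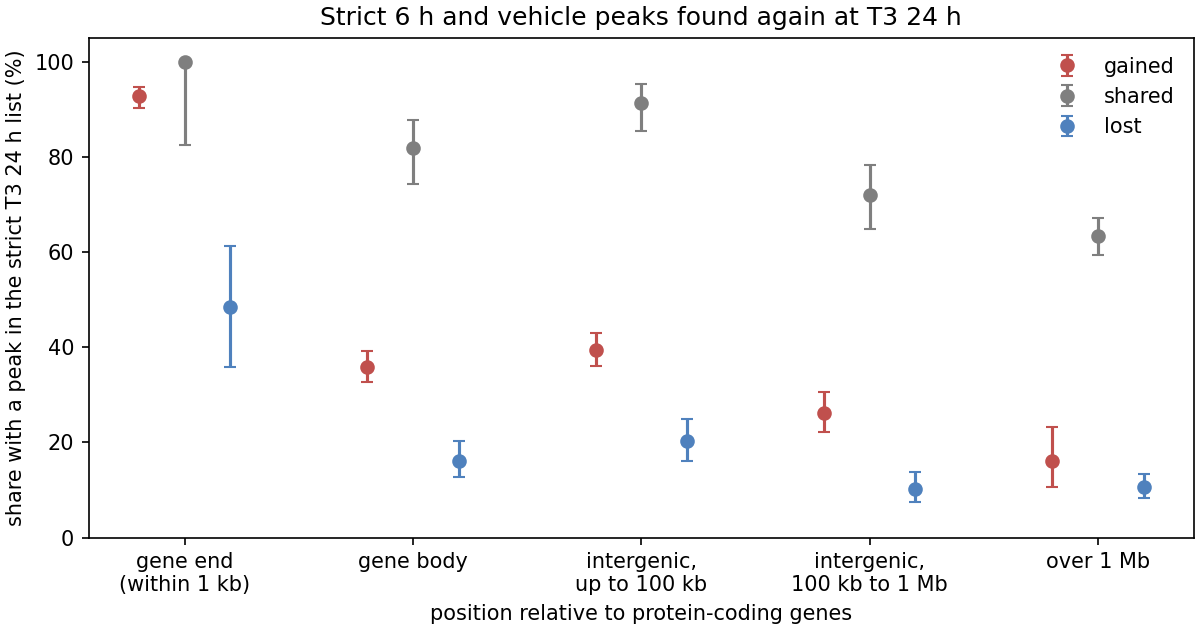
Share of gained, shared and lost strict peaks that overlap a strict T3 24 h peak by at least 50% of the shorter peak, by position relative to protein-coding genes, with exact 95% intervals. Gained peaks stand at 92.7% at gene ends and at 16.2% to 39.5% in the other positions, and lost peaks at 48.4% and at 10.2% to 20.3%.

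The 10 lost gene-end peaks of highest signal had vehicle values from 5.14 to 7.45 in the 2 columns. TGM6, a transglutaminase, had 6.73 and 6.78, TDRD1, of the germline piRNA pathway, 7.14 and 6.31, and IMMT 6.99 and 6.34. ZNF736 had 6.02 and 7.27, RNF34, a ubiquitin ligase, 7.45 and 5.36, and ICE1, of small nuclear RNA transcription, 6.72 and 6.01. PCDHB4, PPIH, a cyclophilin of the spliceosome, FAM90A18 and OR2T1 followed, with first-column values of 5.14 to 5.71 and second-column values of 6.89 to 7.32. The peaks at IMMT, RNF34, ICE1, PPIH and OR2T1 were in the strict 24 h list and the other 5 were not. Those of TDRD1 and OR2T1 had a weaker T3 6 h peak. The peaks at the starts of IMMT, RNF34, ICE1 and PPIH were thus missing from the full T3 6 h list and present in both other lists.

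Shared peaks ranked high in both lists and lay mostly far from genes. Percentiles by signal rank a peak among all deposited peaks of its list on these chromosomes, strict or not. The lowest was therefore 58.9 among gained and 52.1 among lost peaks. The median of shared peaks was 94.2 in the T3 6 h list, where that of gained peaks was 79.9. In the vehicle list it was 90.2, where that of lost peaks was 72.7. The strongest shared peak, at chr17:25920032-25920400, had 45.9 and 54.8. The next were at chr17:22521257-22521579 (40.7 and 49.4), chr13:109424128-109424340 (36.6 and 50.2), chr17:24421264-24421628 (34.6 and 42.4) and chr17:25074300-25074699 (34.4 and 39.5), each 213 to 400 bp wide and present at 24 h. The nearest coding gene end to any of these 5 was 216216 bp away. Of the 598 shared peaks over 1 Mb from any gene end, 216 (36.1%) lay between chr1:122503482 and chr1:125180737, and 108 between chr13:16308793 and chr13:18025260. Lost peaks of that class lay in the same stretch of chromosome 1 in 99 of 616 cases, from chr1:122506877 to chr1:124938201, and gained ones in 38 of 148 (25.7%), from chr1:122546315 to chr1:124746608. Both stretches hold centromeres, whose sequence is made of repeats. Without the peaks over 1 Mb from a gene end, 15.6% of T3 6 h and 28.9% of vehicle peaks were shared.

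At gene ends the shared peaks of highest signal were at LOC124905351 (13.7 and 16.3) and LOC124905413 (5.97 and 11.4), near chromosome tips, at SPATC1L (9.30 and 8.22), SCGB1C2 (9.24 and 7.35) and LOC124900992 (5.04 and 10.5). All 19 shared gene-end peaks were in the strict 24 h list.

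Away from gene ends the strongest gained peak lay inside PPP2R2D, a regulatory subunit of phosphatase PP2A, at chr10:131916738-131920411, with unequal columns (3.63 and 20.8). The others lay inside SLC5A4 (10.5 and 11.4), 6611 bp from SCART1 (11.6 and 10.3), inside ANXA8 (6.44 and 14.3) and 3712507 bp from OR11H1 (8.82 and 11.4). Those at PPP2R2D, SCART1 and ANXA8 had a weaker vehicle peak, and those at SLC5A4 and near OR11H1 had none. COBL, an actin nucleator, had 5 gained peaks assigned to it and 0 lost, spread over 3 gene-body and 2 outside positions, of which 1 was in the strict 24 h list. TGFA, a ligand of the EGF receptor, had 4 gained and 2 lost, and PTPN20 4 gained and 1 lost. In all, 1858 genes had a gained peak assigned, 19 of them 3 or more. DGCR6 and VIPR2, the receptor of the peptide VIP, each had 3 lost and 0 gained.

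Chromosomes 1, 2, 5, 7 and 10 held 44.8% of gained peaks (43 to 46.7) and 47.5% of lost peaks (45.1 to 49.8), but 29.5% of coding genes. Of the gained gene-end peaks 45.7% lay there, and of strict 24 h peaks 37.1%. Chromosome 5 held 11.7% of gained gene-end peaks with 4.53% of coding genes, and chromosome 19 held 2.66% with 7.26%. The 5 chromosomes were picked after the counts were seen.

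The rank relation of the 2 replicate columns differed between classes, but it does not measure how well the replicates agree. Strict peaks were selected by an IDR that rests on both replicates, and gained peaks lay nearer to its limit. Their median −log10 IDR was 2.37, and that of shared T3 6 h peaks 3.41. Across the 2793 gained peaks, which share 2 libraries and were selected on both columns, the columns had a Spearman rho of -0.56, and across the 1088 shared peaks of the same list 0.46. In the vehicle list rho was -0.28 for lost and 0.71 for shared peaks. The second column was the higher one in 70.1% of gained peaks.

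**Figure D5:**
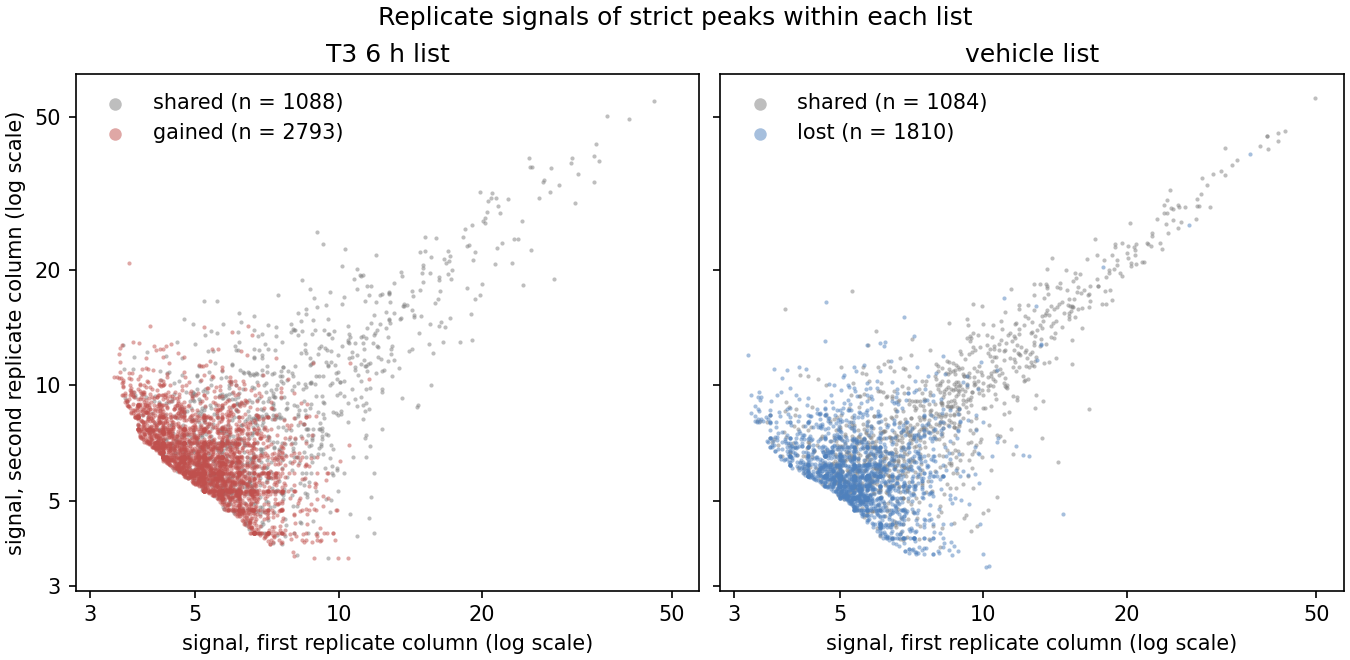
Signal of each strict peak in the first and second replicate column, both on log scales, in the T3 6 h list (left) and the vehicle list (right), with shared peaks in grey. Gained and lost peaks crowd along the lower edge that the strict IDR sets, with rho of -0.56 and -0.28, and shared peaks run up the diagonal.

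Peaks on both sides of the IDR limit were as follows. In the T3 6 h list, 537 peaks had a −log10 IDR of 2.0 to 2.1, of which 16.6% lay at gene ends and 10.2% were shared with strict vehicle peaks. Just outside, from 1.9 to 2.0, there were 652, with 20.2% and 7.67%. In the vehicle list 279 peaks lay just inside, with 3.94% at gene ends, and 323 just outside, with 3.10%. The overlap limit touched few peaks: 9 T3 6 h peaks overlapped a vehicle peak by 50 to 60% of the shorter one and 4 by 40 to 50%.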

How the data were processed

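Per the submitters' processing notes, the reads were handled with CASAVA 1.7, Trim Galore, Bowtie2, MACS2 and DiffBind on build hg38, without settings, order or role. The sources used here do not give read shifting for the Tn5 cut or the treatment of duplicates, mitochondrial reads and blacklists. The authors deposited 1 peak list per group, built from both replicates. Each deposited list gives a score (the scaled irreproducible discovery rate, IDR), the −log10 of the IDR as deposited, and a signal for each replicate and their sum, whose normalisation is not stated. Replicate columns carry no sample name, and the lists hold no read counts, so depth is unknown.

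Strict peaks had a −log10 IDR of at least 2 (IDR at most 0.01) on chromosomes 1 to 22 and X. Sharing needed overlap of 50% of the shorter peak, as the comparison's rule states. The position of a peak for the gene-end classes was the mean of its 2 replicate summits, computed from offsets (another kind of value, in bp) that the authors deposited. Those offsets proved to lean to the left of their peaks, so the merged summit was added as an alternative and used for distances to starts. Gene boundaries, starts and promoter sequences came from RefSeq tables of GRCh38.p14 (19974 coding genes, 15812 with a start entry). A gene-end peak lay within 1 kb of either boundary of a coding gene. Strand was given only for the genes with a start entry, so boundaries stayed the main class and starts were counted separately. Left out were 167 T3 6 h and 194 vehicle strict peaks on other sequences. Peaks were assigned to the nearest gene end within 100 kb. Python 3.11.15, numpy 2.4.6, pandas 2.3.3, scipy 1.17.1 and matplotlib 3.10.9 were used. The overlap code found the same shared peaks in number as bedtools 2.31.1 (1088 and 1084), and 100% of 600 planted overlaps when tested on simulated data of 3881 peaks. Intervals are exact Clopper-Pearson 95% intervals and cover counting error only. With 1 list per group no test between conditions was made. The members, the 29 gene lists and the motifs were chosen with earlier results of these data known. Named were the 10 gained, 10 lost and 5 shared gene-end peaks of highest summed signal, the 5 strongest of each class elsewhere, the genes with most assigned peaks, up to 6 members per list, and 14 hormone, thyroid and remodeller genes. Some members of these lists are not reported here.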

Additional observations from a re-analysis of the deposited data

How the results depend on the processing

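Of 110 values recomputed under other settings, 60 stayed within the 95% interval of the reported share or within 1.5 times the reported count, and 50 moved; the cause was not tested. With an IDR of at most 0.05 in both lists there were 9924 gained and 4641 lost peaks, 18.1% of T3 6 h and 31.9% of vehicle peaks were shared, 17.3% of gained peaks lay at gene ends, 2064 genes were gained and 169 lost, and 16.9% of lost peaks recurred at 24 h. With an IDR of at most 0.001 the counts were 495 gained and 617 lost peaks, so that lost peaks outnumbered gained ones. There 53.2% and 47.6% were shared, 15.8% of gained and 1.94% of lost peaks lay at gene ends, 102 genes were gained and 13 lost, and 37.2% of gained peaks recurred. With overlap of 50% of the longer peak, 24.6% and 33.0% were shared, and 40.5% of gained and 12.7% of lost peaks recurred. With the partner list at an IDR of at most 0.05, 35.0% and 50.8% were shared and 11.3% of lost peaks recurred. In lists of equal length, 33.7% of T3 6 h and 33.7% of vehicle peaks were shared, with 1918 gained and 1920 lost. With replicate summits within 100 bp, a distance made doubtful by the lean of those summits, there were 850 gained and 887 lost peaks, 38.0% of T3 6 h peaks were shared, 15.8% of gained and 2.37% of lost peaks lay at gene ends, 166 genes were gained and 23 lost, and 49.1% and 27.6% recurred. A gene-end window of 500 bp gave 16.4% and 1.93% with 39 lost genes, and one of 2 kb gave 23.2% and 4.53%. With the 24 h list limited to 3881 peaks, 12.6% of gained and 0.829% of lost peaks recurred. Of the settings chosen after seeing the data, gene starts alone gave 17.3% and 1.88% with 37 lost genes. Peaks within 1 Mb of a gene end alone gave 15.6% and 28.9% shared, 1194 lost peaks, 5.36% of them at gene ends and 17.3% recurring. Under each of these settings the gene-end share was higher among gained than among lost peaks. No paired analysis was possible because each list was made from both replicates and its columns carry no replicate number. For the same reason no replicate could be left out.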

Other observations

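Among 53 clustered protocadherin genes, which encode neuronal adhesion proteins in tandem on chromosome 5, 5 were gained and 2 lost at a gene end. Of all coding genes 3.48% were gained and 0.35% lost. A strict 24 h gene-end peak was found for 7 of the 53 (13.2%) and for 55.1% of all coding genes. The gained peak of PCDHB5 lay at chr5:141135755-141137809 and the lost peak of PCDHB4 at chr5:141122123-141124206, and neither had a strict 24 h peak. PCDHA6 and PCDHB2 were gained and PCDHA8 was lost, again without a 24 h peak, whereas the gained PCDHAC1 and PCDHGC3 had one. Of 390 olfactory receptor genes, which serve odour detection, 4 were gained (1.03%) and 1 was lost, and 0 of the gained ones had a 24 h gene-end peak. Such a peak was found for 3.08% of the 390 genes. These genes have close copies, so the assignment of reads to 1 copy is uncertain.

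Of the 5 strongest lost peaks outside gene ends, 3 were 324 to 427 bp wide and the other two 3534 and 4007 bp. The peak at chr2:87824890-87825316, inside RGPD2, had replicate signals of 36.3 and 40.1 and was present at 24 h. The peak at chr7:45251994-45252330, 67789 bp from RAMP3, had signals of 27.0 and 26.2, and the one at chr5:123761005-123761328, 144245 bp from CSNK1G3, had 17.9 and 20.3. The peaks near RAMP3 and CSNK1G3 were absent from the strict 24 h list and from the full T3 6 h list. The wide ones lay at chr15:19563237-19567243 (12.9 and 16.1, present in the strict 24 h list) and chr2:93670251-93673784 (11.1 and 16.9, absent from it), and each had a weaker peak in the T3 6 h list.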
